A study of Mus musculus with 9 samples.

Results

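The ligands and receptors by which macrophages promote or restrain T cells and phagocytosis were followed in RNA-seq counts of sorted mouse liver macrophages. The set was chosen by gene symbol from the raw count table and comprised 10 of its 23413 genes, namely the costimulatory molecules Cd80, Cd86, Cd40 and Icosl, the PD-1 ligands Cd274 and Pdcd1lg2, the TIM-3 pair Havcr2 and Lgals9, and the phagocytosis checkpoint pair Sirpa and Cd47. All 10 passed the filter on low counts that left 11393 genes for testing. The study addressed whether DPI (diphenyleneiodonium, used there as an agonist of the receptor GPR3) changes gene expression in Kupffer cells (KCs), the resident macrophages of the liver, of obese mice.

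The 9 libraries, each titled as 1 mouse, came from male C57BL/6 mice that were 5 weeks old when the diets began and stayed on them for 8 weeks. The NC group (n = 2) was fed normal chow. The vehicle group (n = 3) was fed a high-fat diet (HFD) and injected with vehicle, and the DPI group (n = 4) was fed the HFD and injected intraperitoneally with 2 mg/kg DPI every 5 days from week 3. No group carried a transgene or a deletion. The sample labels describe a different treatment, of purified cells with 500 nM DPI or DMSO for 24 h, and the groups were described here by the study's methods. "HFD against NC" below means the vehicle group against the NC group, so this comparison and DPI against vehicle share the 3 vehicle libraries.

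CD80 and CD86 on antigen-presenting cells bind CD28 and CTLA-4 on T cells, CD40 is bound by CD40 ligand on helper T cells, and ICOS ligand binds ICOS. PD-L1 (Cd274) and PD-L2 (Pdcd1lg2) bind PD-1 and restrain T cells, and TIM-3 (Havcr2) and galectin-9 (Lgals9) form another inhibitory pair. SIRPα (Sirpa) on macrophages binds CD47, which most cells carry, and the contact inhibits engulfment. In the liver, KCs are known for presenting antigen in a largely tolerogenic way, and interferon-γ is a well-known inducer of PD-L1 and CD40.

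Library totals lay between 3534325 and 15585775 counts (median 4918629), of which 27.0% to 44.5% fell on the ribosomal RNA precursor Rn45s. A floor of 3 counts corresponded to 0.184 to 1.02 CPM (counts scaled to a common library total, with TMM factors), which covers counting error only. The macrophage genes Csf1r (1617 to 7753 counts), Cd68 (1034 to 5490 counts) and Emr1, which encodes F4/80 (219 to 2315 counts), were detected in all 9 libraries. Genes that define resident KCs were scarce. Clec4f was at 0 in 3 libraries, Timd4 and Vsig4 were each at 0 in 5, and Marco was at 0 in 8. The sorted cells are therefore called liver macrophages here, although the study's methods describe them as mostly KCs. The 2 NC libraries differed in Clec4f (0 and 244 counts) and Timd4 (0 and 28 counts). Counts of the tested genes correlated at 0.740 (Spearman) between them, against 0.838 to 0.887 for the other pairs within a group. Both comparisons with NC rest on these 2 libraries. Markers of other cells were present in every group, with Cd3e of T cells at 38 to 352 counts, S100a8 of neutrophils at 554 to 18609 counts and Flt3 of dendritic cells at 28 to 253 counts. In such bulk samples, fewer cells of a type and less RNA per cell cannot be told apart.

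Among the costimulatory molecules, Cd40 (chr2:165055627-165072948, GRCm38) was higher in HFD than in NC at the study's threshold, which asks for a change of 2 times or more in either direction and p below 0.05 before adjustment. Cd40 lay at 12.2 and 17.9 CPM in NC, at 34.4, 24.7 and 47.3 CPM in vehicle and at 25.7, 18.3, 17.1 and 14.2 CPM in DPI. Both NC libraries lay below all vehicle libraries, whereas vehicle replicate 2 lay below DPI replicate 1, so vehicle and DPI overlapped. For HFD against NC the log2 fold change was 1.23 (SE 0.50) by edgeR's quasi-likelihood test (Benjamini-Hochberg adjusted p = 0.336). It was -0.91 (SE 0.40) for DPI against vehicle by the same edgeR test (adjusted p = 0.999), with an unadjusted p under 0.05 but short of 2 times, and 0.32 (SE 0.46) for DPI against NC (adjusted p = 0.854). The unadjusted p of HFD against NC no longer stayed under 0.05 without NC replicate 1 (log2 fold change 0.99) or without vehicle replicate 3 (1.02). That of DPI against vehicle no longer did so without vehicle replicate 1 (-0.93), vehicle replicate 3 (-0.66), DPI replicate 2 (-0.90), DPI replicate 3 (-0.87) or DPI replicate 4 (-0.79).

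Cd80 (chr16:38455561-38496335), one of the CD28 ligands, was among the lowest members and the most variable. Its CPM was 1.09 and 4.67 in NC, 12.0, 10.5 and 8.18 in vehicle and 3.49, 1.70, 5.57 and 20.6 in DPI. The raw counts behind these values were as low as 6 in NC replicate 1 and 5 in DPI replicate 2. All vehicle libraries lay above both NC libraries, while the DPI libraries spanned the values of both other groups. Its log2 fold change of HFD against NC was 1.82 (SE 1.07) and did not pass the threshold by edgeR (adjusted p = 0.489), and it turned on the NC libraries, at 1.14 without NC replicate 1 and 3.23, past the study's threshold, without NC replicate 2. For DPI against vehicle it was -0.37 (SE 0.83, edgeR adjusted p = 0.999), and it was -1.49 (SE 0.83) without DPI replicate 4 and -0.51 to -0.05 without any other library.

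Cd86 (chr16:36603869-36666081, minus strand), the other CD28 ligand, stood at 33.3 and 36.8 CPM in NC and at 39.5, 44.1 and 34.9 CPM in vehicle. In DPI it stood at 9.87, 19.7, 37.7 and 28.6 CPM, so 3 of the 4 DPI libraries lay below every NC and vehicle library and DPI replicate 3 lay among them. Its log2 fold change was 0.17 (SE 0.50) for HFD against NC and -0.72 (SE 0.42) for DPI against vehicle, where edgeR gave an adjusted p of 0.999. Without DPI replicate 3 the latter was -1.03 (SE 0.44) and passed the study's threshold.

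Icosl (chr10:78069302-78083913), the ligand of ICOS, had its highest and lowest values in the same group. It stood at 26.2 CPM in NC replicate 1 and 2.80 CPM in NC replicate 2, at 7.32, 8.52 and 15.4 CPM in vehicle and at 9.81, 6.79, 18.6 and 8.98 CPM in DPI. The NC libraries differed 9.36-fold, and every HFD library lay between them. The log2 fold change of HFD against NC was -0.48 (SE 0.82, edgeR adjusted p = 0.862), but it was 1.89 without NC replicate 1 and -1.31 without NC replicate 2, so no direction can be given. DPI against vehicle gave 0.09 (SE 0.69, edgeR adjusted p = 0.999).

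**Figure D1:**
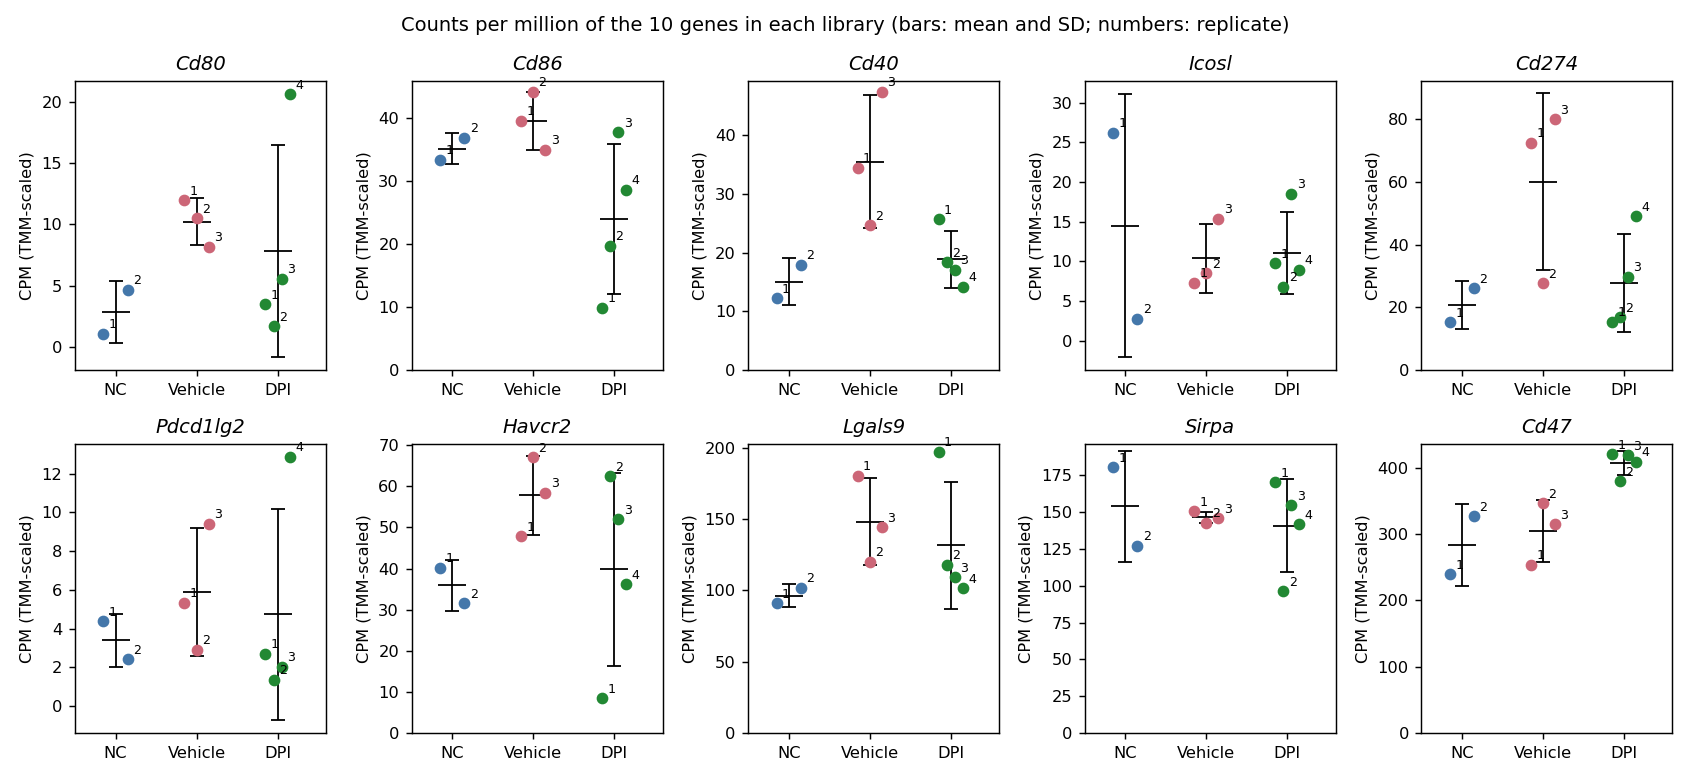
TMM-scaled CPM (y axis, linear, 1 panel per gene) of the 10 genes in the NC, vehicle and DPI libraries, with points for libraries, numbers for replicates and bars for the group mean and SD. Cd47 lay above 380 CPM in all DPI libraries and below 347 CPM in all others, and Icosl spanned 2.80 to 26.2 CPM within NC.

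Of the PD-1 ligands, Cd274 (chr19:29367455-29388095), which encodes PD-L1, was past the study's threshold in both comparisons with the vehicle group, higher than in NC and higher than in DPI. Cd274 lay at 15.3 and 26.1 CPM in NC, at 72.6, 27.7 and 80.0 CPM in vehicle and at 15.5, 17.0, 29.9 and 49.2 CPM in DPI. Vehicle replicate 2 stood just above the higher NC library and below DPI replicates 3 and 4, so the vehicle libraries did not overlap with NC but did with DPI. The mean was 20.7 ± 7.67 CPM (SD, n = 2) in NC, 60.1 ± 28.3 CPM (n = 3) in vehicle and 27.9 ± 15.6 CPM (n = 4) in DPI. In HFD against NC its log2 fold change was 1.53 (SE 0.61) by edgeR's quasi-likelihood test (Benjamini-Hochberg adjusted p = 0.332). For DPI against vehicle it was -1.10 (SE 0.48) by the same edgeR test (adjusted p = 0.999), and for DPI against NC 0.43 (SE 0.56, adjusted p = 0.832).

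Either call of Cd274 depended on single libraries. In HFD against NC its unadjusted p no longer stayed under 0.05 without NC replicate 1 (log2 fold change 1.2), vehicle replicate 1 (1.42) or vehicle replicate 3 (1.32). For DPI against vehicle it no longer did so without vehicle replicate 1 (-0.94), vehicle replicate 3 (-0.85), DPI replicate 1 (-0.90), DPI replicate 2 (-0.93) or DPI replicate 3 (-1.14). A two-sided exact permutation test of DPI against vehicle on log2 CPM gave p = 0.143 for Cd274 and p = 0.0857 for Cd40. Scaling by library size in place of TMM shifted the table-wide median (log2) from 0.03 to -0.26 for HFD against NC, from 0.04 to 0.12 for DPI against vehicle and from 0.04 to -0.17 for DPI against NC. Under it neither gene passed in the first or the second comparison, with log2 fold changes of 0.92 and -0.80 for Cd40 and of 1.22 and -0.96 for Cd274.

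Pdcd1lg2 (chr19:29410919-29471161), which encodes PD-L2 and lies next to Cd274, was low. It had 4 counts in DPI replicate 2, near the floor, and 11 to 126 counts in the other libraries. It stood at 4.37 and 2.43 CPM in NC, at 5.33, 2.90 and 9.42 CPM in vehicle and at 2.70, 1.36, 2.04 and 12.9 CPM in DPI. DPI replicate 4 was the highest of all 9 libraries with 126 counts, against 4 to 44 counts in the other DPI libraries. For HFD against NC edgeR gave a log2 fold change of 0.78 (SE 1.13, adjusted p = 0.830), with 0.32 without vehicle replicate 3 and 1.27 without NC replicate 1. For DPI against vehicle it was -0.29 (SE 0.92, edgeR adjusted p = 0.999). That value was -1.50 (SE 0.96) without DPI replicate 4 and turned to 0.22 without vehicle replicate 3.

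The letters around the start of Cd274 are shown because it was the member past the threshold in both comparisons, and those of Lgals9 because it held the only motif matches among the members. RefSeq promoters (GRCm38.p6, 250 bases before to 50 after the annotated start) were at hand for 7 of the 10 members, the others being Cd86, Cd40 and Sirpa. Searched on both strands, overlaps allowed, were the interferon-γ-activated site GAS (TTCNNNGAA), the interferon-stimulated response element ISRE (GAAA, any 2 bases, GAAA) and the NF-κB site (GGGA, any base, TTTCC). Capitals mark matches, and coordinates are chr19:29367188-29367487 on the plus strand for Cd274 and chr11:78984875-78985174 on the minus strand for Lgals9.
Cd274: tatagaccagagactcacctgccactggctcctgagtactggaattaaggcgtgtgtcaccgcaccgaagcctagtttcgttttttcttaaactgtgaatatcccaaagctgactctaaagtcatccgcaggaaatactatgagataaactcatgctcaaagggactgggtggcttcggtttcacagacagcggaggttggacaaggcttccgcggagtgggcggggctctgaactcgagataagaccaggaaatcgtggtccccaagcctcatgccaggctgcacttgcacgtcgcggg
Lgals9: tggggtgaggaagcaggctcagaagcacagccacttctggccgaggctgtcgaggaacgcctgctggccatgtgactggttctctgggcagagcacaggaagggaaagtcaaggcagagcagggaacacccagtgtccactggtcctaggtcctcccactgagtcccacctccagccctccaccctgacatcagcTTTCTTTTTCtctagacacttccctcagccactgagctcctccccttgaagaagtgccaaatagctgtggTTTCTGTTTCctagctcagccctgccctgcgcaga
Lgals9 held 2 ISRE matches on the opposite strand, starting 55 bases before and 15 bases after the annotated start. ISRE letters occur in 3.49% of the 27025 RefSeq promoters of the same length, GAS letters in 8.47% and NF-κB letters in 0.385%. A match is a run of letters and not a measured binding site, and these windows held no match for the other 6 members.

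Havcr2 (chr11:46454935-46481255), which encodes TIM-3, a receptor of T cells and myeloid cells, lay at 40.3 and 31.6 CPM in NC and at 47.9, 67.1 and 58.5 CPM in vehicle. Every vehicle library lay above both NC libraries. In DPI it lay at 8.46, 62.5, 52.0 and 36.2 CPM, so that DPI replicate 1 was far below all other libraries, although it was the deepest. Its log2 fold change was 0.69 (SE 0.61) for HFD against NC (edgeR adjusted p = 0.675). For DPI against vehicle it was -0.55 (SE 0.49, edgeR adjusted p = 0.999), and -0.21 without DPI replicate 1.

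Lgals9 (chr11:78962974-78984946, minus strand) encodes galectin-9, a β-galactoside-binding lectin and a ligand of TIM-3. It lay at 90.9 and 102 CPM in NC, at 180, 120 and 144 CPM in vehicle and at 197, 118, 109 and 102 CPM in DPI. Vehicle again lay above NC in every library, and DPI replicate 1 had the highest value of all. Its log2 fold change was 0.62 (SE 0.36) for HFD against NC (edgeR adjusted p = 0.481) and -0.17 (SE 0.29) for DPI against vehicle (adjusted p = 0.999). The latter was -0.43 without DPI replicate 1 and -0.01 without vehicle replicate 1.

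Cd47 (chr16:49800533-49915010), the signal carried by most cells that inhibits their engulfment, was the member in which DPI and vehicle libraries did not overlap. It stood at 240 and 327 CPM in NC, at 254, 346 and 315 CPM in vehicle and at 421, 380, 419 and 409 CPM in DPI. All 4 DPI libraries were above all 5 others, with means of 283 ± 61.6 CPM (SD, n = 2) in NC, 305 ± 47.1 CPM (n = 3) in vehicle and 407 ± 18.8 CPM (n = 4) in DPI. The two-sided exact permutation test of DPI against vehicle gave p = 0.0286, unadjusted over the 10 members so tested and the smallest p that the 35 assignments of these libraries allow. By edgeR's quasi-likelihood test, the log2 fold change of 0.42 (SE 0.23) did not pass the threshold (adjusted p = 0.999). For DPI against NC, edgeR gave 0.52 (SE 0.26, adjusted p = 0.496), which was 0.33 without NC replicate 1 and 0.79, with an unadjusted p under 0.05, without NC replicate 2, and for HFD against NC 0.11 (SE 0.27, adjusted p = 0.918).

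Sirpa (chr2:129592835-129632228), the inhibitory macrophage receptor for CD47, varied little. It stood at 181 and 127 CPM in NC, at 151, 143 and 146 CPM in vehicle and at 170, 96.5, 155 and 142 CPM in DPI. The groups overlapped throughout, with log2 fold changes of -0.07 (SE 0.32) for HFD against NC, -0.06 (SE 0.27) for DPI against vehicle and -0.13 (SE 0.30) for DPI against NC, none past the edgeR threshold (adjusted p = 0.956, 0.999 and 0.916). Sirpa has close relatives among the Sirpb1 genes, with which the counting could split or share reads, so its level is uncertain.

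Counted together, 8 of the 10 members had a positive log2 fold change for HFD against NC, with a median of 0.65 against 0.03 over all tested genes. Calls by the study's threshold covered 2 members that were higher (Cd40 and Cd274) and 0 that were lower, where 7.03% and 4.63% of all genes were called. The libraries of vehicle and NC did not overlap for 5 members, all higher in vehicle (Cd80, Cd40, Cd274, Havcr2 and Lgals9), beside 15% of all genes higher and 12.5% lower without overlap. No member passed an adjusted p of 0.05 by edgeR, which 0.0614% of genes did, nor by DESeq2 or edgeR's likelihood ratio test, whose smallest adjusted p-values were 0.173 and 0.184. Each of these tools gave 2 members at an unadjusted p under 0.05. With library size scaling, the genes called over the whole table were 539 higher and 933 lower in place of 801 and 528, and the log2 fold changes of Cd86 and Cd47 turned to -0.11 and -0.18.

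For DPI against vehicle, 8 of the 10 members had a negative log2 fold change, with a median of -0.33 against 0.04 over all tested genes. The called members were 1 lower (Cd274) and 0 higher, where 1.34% and 1.5% of genes were called. Cd47 was the 1 member whose groups did not overlap, on the higher side, beside 3.38% of genes higher and 2.48% lower without overlap. No gene of the table (0%) passed the adjustment in this comparison by edgeR, while 470 genes and 2 members had an unadjusted p under 0.05. With library size scaling, 196 genes were called higher and 101 lower in place of 171 and 153, and the log2 fold change of Sirpa turned to 0.04. DESeq2 and edgeR's likelihood ratio test likewise gave 2 members at an unadjusted p under 0.05, and adjusted p-values no smaller than 0.937 and 0.824.

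For DPI against NC, 7 members were positive and 3 negative, with a median of 0.38 against 0.04 over all genes. None was called in either direction by edgeR, where 6.24% of genes were called higher and 3.05% lower and 0.00878% passed the adjustment, and 0 members had an unadjusted p under 0.05, also by DESeq2 and edgeR's likelihood ratio test (smallest adjusted p-values 0.387 and 0.517). With library size scaling, 546 genes were called higher and 624 lower in place of 711 and 347, and the log2 fold change of Havcr2 turned to -0.13. The other log2 fold changes were 1.46 (SE 1.02) for Cd80 (0.77 without NC replicate 1 and 2.87 without NC replicate 2), -0.55 (SE 0.47) for Cd86, -0.39 (SE 0.77) for Icosl, 0.50 (SE 1.07) for Pdcd1lg2, 0.14 (SE 0.57) for Havcr2 and 0.45 (SE 0.34) for Lgals9. Icosl turned to 1.98 without NC replicate 1 and was -1.22 without NC replicate 2, so no direction can be given for it. Cd47 was again the 1 member without overlap, beside 11.7% of genes higher and 8.5% lower. These 3 comparisons share libraries, so their counts are not independent of each other.

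**Figure D2:**
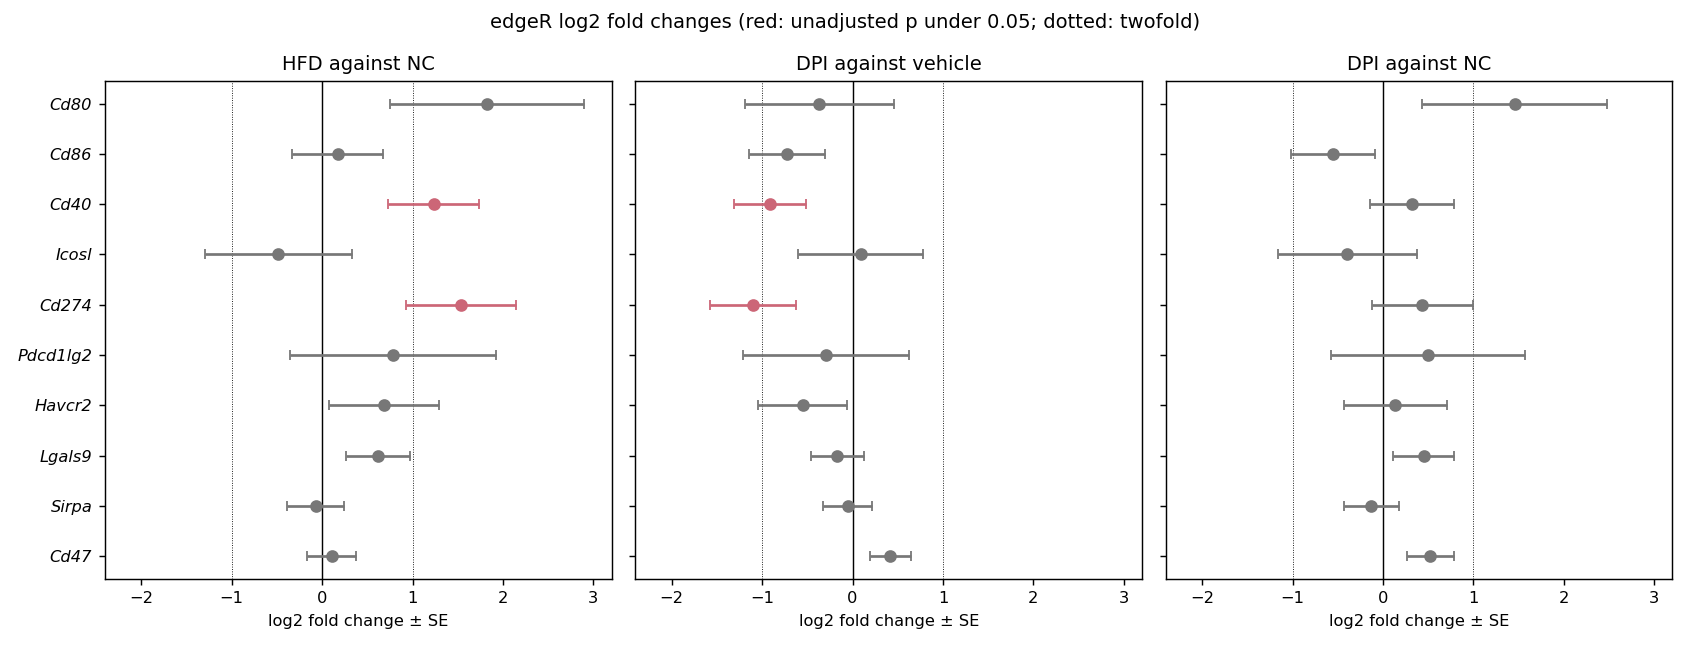
edgeR log2 fold changes with their SE (x axis) of the 10 genes for HFD against NC, DPI against vehicle and DPI against NC, in red where the unadjusted p was under 0.05, with dotted lines at a log2 fold change of 1 in either direction. Cd40 (1.23 and -0.91) and Cd274 (1.53 and -1.10) are red in the first and the second comparison, and no gene is red in the third.

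Levels were compared between genes as CPM per kilobase of exon. In vehicle, Lgals9 (69.4 ± 14.2, SD, n = 3), Cd47 (48.6 ± 7.51) and Sirpa (29.8 ± 0.805) were the highest, followed by Havcr2 (21.3 ± 3.53), Cd274 (16.6 ± 7.81), Cd86 (10.8 ± 1.25) and Cd40 (10.4 ± 3.34). Pdcd1lg2 (3.00 ± 1.68), Cd80 (2.76 ± 0.519) and Icosl (2.25 ± 0.939) were the lowest. The neighbours Havcr2 and Cd274, Cd274 and Cd86, Cd86 and Cd40, and the last 3 genes overlapped within their SDs, as did Lgals9 and Cd47. In NC, Cd47 (45.1 ± 9.82, n = 2) and Lgals9 (45.1 ± 3.67) were level, followed by Sirpa (31.3 ± 7.70), Havcr2 (13.2 ± 2.26) and Cd86 (9.58 ± 0.669), which were each separated from the gene before by more than their SDs. From Cd274 (5.72 ± 2.12) through Cd40 (4.42 ± 1.19), Icosl (3.14 ± 3.59) and Pdcd1lg2 (1.73 ± 0.701) to Cd80 (0.778 ± 0.683), neighbours in NC overlapped. In DPI, Cd47 (64.9 ± 3.00, n = 4) and Lgals9 (61.6 ± 20.8) again led and overlapped, and Sirpa (28.7 ± 6.46) lay below them. From there on, Havcr2 (14.6 ± 8.64), Cd274 (7.70 ± 4.31), Cd86 (6.54 ± 3.25), Cd40 (5.53 ± 1.44), Pdcd1lg2 (2.42 ± 2.77), Icosl (2.39 ± 1.12) and Cd80 (2.12 ± 2.34) each overlapped with their neighbours in the order. The same 4 genes, Cd47, Lgals9, Sirpa and Havcr2, held the upper ranks in each group.

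Over all 9 libraries the lowest genes tended to vary most, with Havcr2 as an exception. The highest CPM exceeded the lowest 18.9-fold for Cd80, 9.46-fold for Pdcd1lg2, 7.93-fold for Havcr2 and 5.23-fold for Cd274, but 2.17-fold for Lgals9, 1.87-fold for Sirpa and 1.76-fold for Cd47. Cd80 and Pdcd1lg2 fell to 5 and 4 counts in DPI replicate 2, where counting error is largest, whereas the lowest count of Havcr2 was 138.

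**Figure D3:**
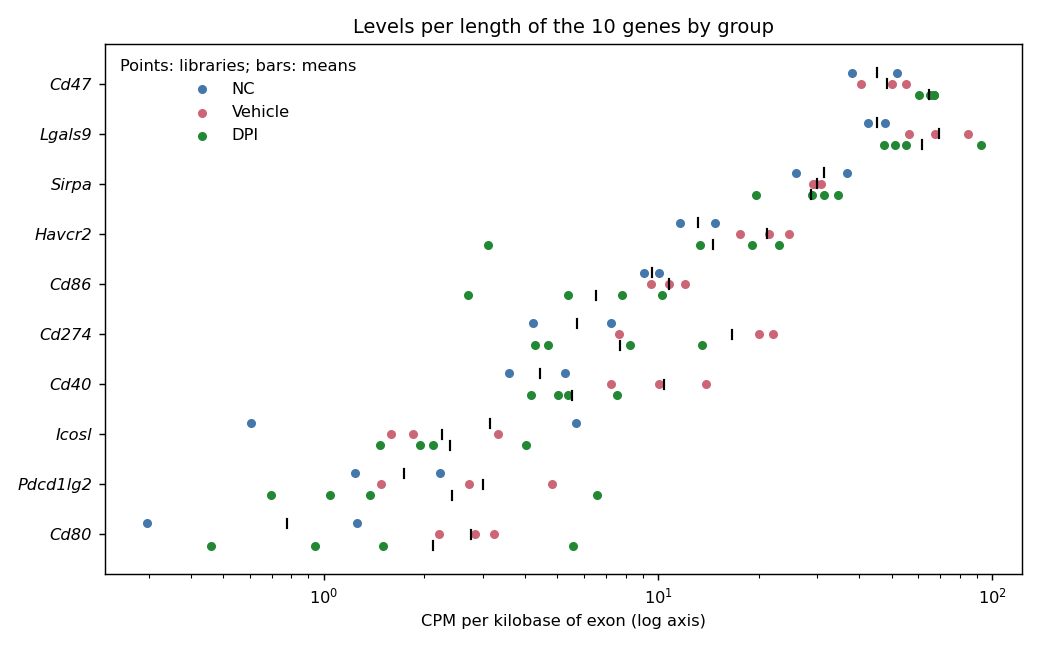
Level per length (x axis, CPM per kilobase of exon, log scale) of the 10 genes, with points for libraries of NC, vehicle and DPI and bars for group means. Cd47, Lgals9 and Sirpa lay near or above 30 in every group mean, whereas Cd80, Pdcd1lg2 and Icosl had group means between 0.778 and 3.14.

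Ratios within a library do not depend on its scaling, and the 4 pairs below are given as a description without a test. Per kilobase, Cd80 stood at 0.0324 and 0.125 of Cd86 in NC, at 0.300, 0.236 and 0.231 in vehicle and at 0.350, 0.0852, 0.146 and 0.713 in DPI. All vehicle values were above both NC values, and the DPI values were spread over both. Cd274 exceeded Pdcd1lg2 in every library, 1.89- and 5.83-fold in NC, 7.38-, 5.18- and 4.60-fold in vehicle and 3.11-, 6.77-, 7.92- and 2.07-fold in DPI, with overlap between all groups.

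The ratio of Cd47 to Sirpa was 1.04 and 2.01 in NC, 1.32, 1.90 and 1.69 in vehicle and 1.93, 3.08, 2.12 and 2.26 in DPI. Each DPI value lay above each vehicle value, while NC replicate 2 lay among the DPI values. The ratio of Lgals9 to Havcr2 was 2.87 and 4.11 in NC, 4.79, 2.28 and 3.14 in vehicle and 2.41, 2.68 and 3.57 in DPI replicates 2 to 4, but 29.7 in DPI replicate 1. That library combined the highest Lgals9 with the lowest Havcr2 and the lowest Cd86 of all libraries, and had the highest summed monocyte markers (8528 CPM over 8 genes, against 4107 to 5534 CPM in the others). It also had the highest Emr1 of all libraries (142 CPM) and the highest endothelial sum of the HFD libraries (123 CPM). The part of cell composition in this was not tested.

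**Figure D4:**
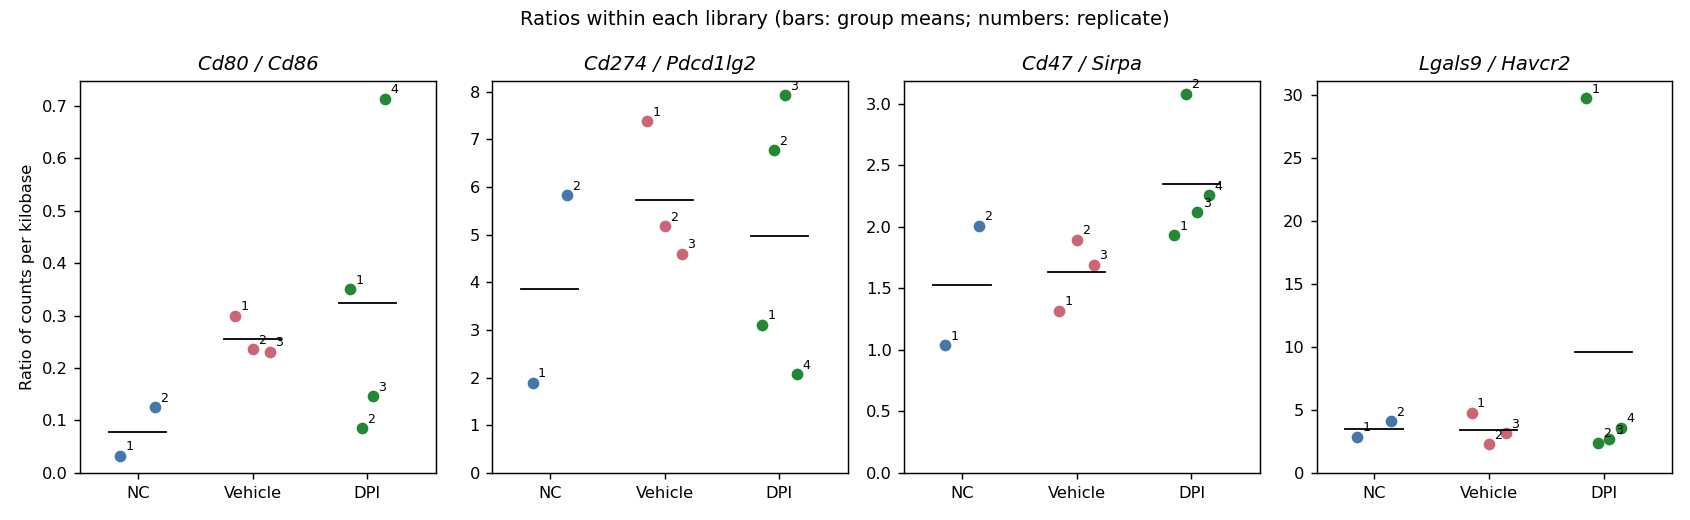
Ratios of CPM per kilobase within each library (y axes, linear, 1 panel per gene pair), with points for libraries, numbers for replicates and bars for group means. DPI replicate 1 stands apart at 29.7 for Lgals9 to Havcr2, and the 4 DPI values of Cd47 to Sirpa (1.93 to 3.08) lie above the vehicle values (1.32 to 1.90).

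Markers of other antigen-presenting cells differed between the libraries, and did not follow the members in each of them. The summed CPM of 8 B cell markers, all detected in the table, was 33.0 and 78.4 in NC, 119, 204 and 176 in vehicle and 50.6, 20.4, 129 and 479 in DPI. Cd80 and Pdcd1lg2 had their highest CPM in DPI replicate 4 and were lowest, or in Cd80 next to lowest, in DPI replicate 2, the libraries at both ends of that range. Vehicle replicate 2 went the other way, with the highest B cell sum of the vehicle libraries and their lowest Cd274 (27.7 CPM) and Pdcd1lg2 (2.90 CPM). The summed CPM of 12 dendritic cell markers was 161 and 160 in NC, 267, 363 and 305 in vehicle and 162, 234, 337 and 471 in DPI, so NC and vehicle did not overlap. The largest part of that gap was Ccr7, a receptor of migrating dendritic cells and of T cells, with 0 and 46.7 CPM in NC, 115, 276 and 142 CPM in vehicle and 34.0, 74.0, 122 and 320 CPM in DPI. Without Ccr7, an alternative chosen after seeing the data, the other 11 markers summed to 161 and 113 CPM in NC, 153, 86.9 and 163 CPM in vehicle and 128, 160, 215 and 151 CPM in DPI, and the groups overlapped. By group means 5 of the 12 markers were higher in vehicle than in NC, namely Ccr7, Ccl22 (28.1 against 0.367 CPM), Ccl17 (8.15 against 2.19), Siglech (2.56 against 0.367) and Cd209a (31.7 against 22.6). The other 7 were lower, among them Itgax (31.7 against 55.6 CPM) and Flt3 (13.8 against 23.0). Across the 4 DPI libraries Cd274 (15.5, 17.0, 29.9 and 49.2 CPM) had the same order as the sum of the 12 and as Ccr7, and Cd80 and Pdcd1lg2 were highest where that sum was. The vehicle libraries did not show this order for Cd274. There, replicate 2 had the highest sum (363 CPM) and the highest Ccr7 (276 CPM) but the lowest Cd274 (27.7 CPM). Among the DPI libraries, Cd40 and Lgals9 did not follow the sum of the 12. In DPI replicate 4 the sum of the 12 was the highest of that group while Cd40 was the lowest (14.2 CPM), and in DPI replicate 1 the sum was the lowest while Cd40 (25.7 CPM) and Lgals9 (197 CPM) were the highest. Markers of T and NK cells summed to 95.4 to 335 CPM in NC, 221 to 424 CPM in vehicle and 280 to 540 CPM in DPI (12 of 13 genes in the table), and 9 of 10 neutrophil genes to 1191 to 3090, 2523 to 3868 and 831 to 5471 CPM. Macrophage genes (13 of 14) summed to 1355 to 1675, 1110 to 1388 and 1066 to 1821 CPM, hepatocyte genes to 114 to 188, 18.0 to 46.4 and 33.2 to 82.5 CPM and endothelial genes to 119 to 172, 6.44 to 11.1 and 4.27 to 123 CPM. Their part in the members' differences was not tested.

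**Figure D5:**
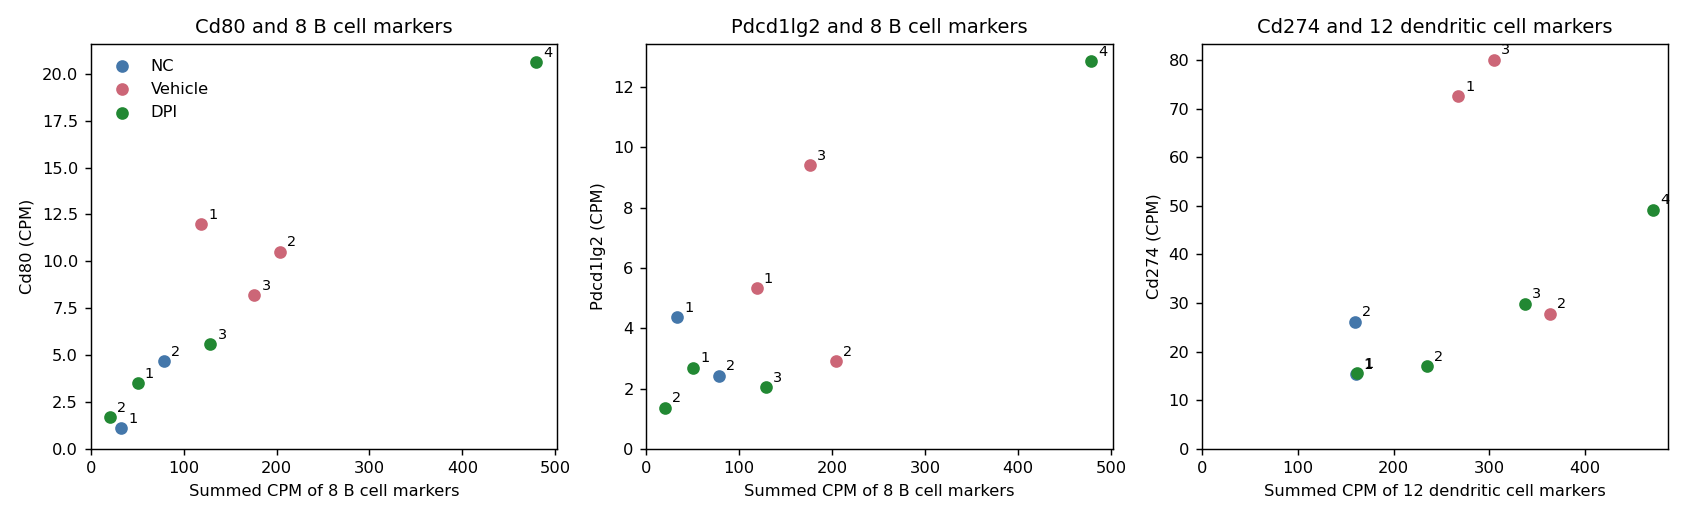
CPM of Cd80, Pdcd1lg2 and Cd274 (y axes, linear) against the summed CPM of 8 B cell markers (left and middle) or 12 dendritic cell markers (right), 1 point per library with its replicate number. DPI replicate 4, at 479 CPM of B cell markers, is the highest point for Cd80 (20.6 CPM) and Pdcd1lg2 (12.9 CPM), and vehicle replicates 1 and 3 are the highest for Cd274. The dendritic cell sum includes Ccr7.

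Across the 9 libraries the members most alike in log2 CPM were Cd80 and Cd274 (Pearson's r = 0.79), Cd86 and Havcr2 (0.78), Cd40 and Lgals9 (0.76) and Cd274 and Pdcd1lg2 (0.70). Among all tested genes, those most like Cd274 were Rlim (r = 0.96), Gm20594 (0.95) and Plp2 (0.95), and those most like Cd40 were Pydc3 (0.93), Tmem209 (0.91) and Kdm5c (0.91). The points share their groups and cell makeup, and the values are a description over 9 libraries of 3 groups.

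Among 26 other ligands and myeloid checkpoints, of which 16 were tested, 1 rose and 1 fell in HFD against NC by the study's threshold, where 7.03% and 4.63% of all genes did, with a median log2 fold change of 0.03, the same as over all genes. Cd72, an inhibitory receptor best known from B cells, had 165 and 26 counts in NC, 27, 17 and 9 in vehicle and 362, 75, 67 and 196 in DPI, with every DPI library above every vehicle library in CPM and NC replicate 2 (4.86 CPM) within the vehicle range. It fell by 2.21 on the log2 scale in HFD against NC (SE 0.74, edgeR adjusted p = 0.274) and was 2.40 higher in DPI against vehicle (SE 0.67, adjusted p = 0.999). The first of these calls was lost without NC replicate 1, where the log2 fold change of Cd72 was -0.35, and without NC replicate 2 it was -2.96. Tnfsf9, which encodes 4-1BB ligand, was higher by 1.28 in HFD against NC (SE 0.45, edgeR adjusted p = 0.289), and without NC replicate 1 it was no longer called (1.04). Vsir, the checkpoint molecule VISTA, listed in the table as 4632428N05Rik, had an unadjusted p under 0.05 but a log2 fold change of -0.94 in the same comparison (SE 0.32, edgeR adjusted p = 0.278). The value was -0.53 without NC replicate 1 and -1.22 without NC replicate 2. In DPI against vehicle 1 gene of this list rose (Cd72) and 1 fell, Tnfrsf14, a ligand of BTLA, at -1.25 (SE 0.53, edgeR adjusted p = 0.999), where 1.5% and 1.34% of all genes were called, and the median was -0.40 beside 0.04 over all genes. Tnfrsf14 was no longer called without vehicle replicate 1 (-0.95) or 3 (-1.07), or DPI replicate 1 (-1.29), 3 (-1.06) or 4 (-1.25). In DPI against NC none was called, where 6.24% and 3.05% of all genes were, with a median of 0.00 beside 0.04. There Vsir (4632428N05Rik), at -0.65 (SE 0.30), and Tnfsf9, at 0.94 (SE 0.43), had an unadjusted p under 0.05 but less than the required fold (edgeR adjusted p = 0.460 for both). The unadjusted p of Vsir exceeded 0.05 without vehicle replicate 1 or 3, or DPI replicate 2, 3 or 4. That of Tnfsf9 did so without any 1 of the vehicle or DPI libraries. Vsir was at -0.24 without NC replicate 1 and at -0.94 without NC replicate 2, and Tnfsf9 at 0.70 and 1.29.

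The T cell receptors that bind these ligands were read in cells sorted as macrophages, beside the T cell markers given above, and which cells they came from was not tested. Among those markers, Cd3e had means of 8.41 ± 2.11 CPM (SD) in NC, 39.4 ± 19.1 CPM in vehicle and 26.3 ± 12.3 CPM in DPI. The summed T and NK cell markers overlapped between all groups. Of 15 such genes 14 were tested, and 3 rose and 0 fell in HFD against NC, 0 rose and 2 fell in DPI against vehicle, and 4 rose and 2 fell in DPI against NC by the study's threshold. Of all genes, 7.03%, 1.5% and 6.24% were called higher and 4.63%, 1.34% and 3.05% lower in these comparisons. The medians of the list's log2 fold changes were 1.10, -0.03 and 0.90, or 0.92, -0.03 and 0.34 with genes of an empty group at the bound that the floor gives, beside 0.03, 0.04 and 0.04 over all genes. Cd28, the receptor of CD80 and CD86, had 17 and 44 counts in NC against 53 to 199 in vehicle, a log2 fold change of 1.97 (SE 0.70, edgeR adjusted p = 0.289), and it was no longer called without NC replicate 1 (1.45) or vehicle replicate 2 (1.42), while without NC replicate 2 it was 2.87. Cd96, a receptor of T and NK cells, had 0 and 0 counts in NC, 0, 26 and 8 in vehicle and 81, 25, 29 and 66 in DPI. Against a floor of 3 counts per library it was at least 4.04-fold higher in vehicle than in NC, at least 1.79-fold without vehicle replicate 2, and at least 11.6-fold higher in DPI. 1 vehicle library held no count of it, as in NC. Tnfrsf4 (OX40) had 0 and 0 counts in NC, 25, 0 and 1 in vehicle and 52, 18, 18 and 8 in DPI, so vehicle replicate 1 held nearly all of its vehicle counts. It was at least 3.50-fold higher in vehicle than in NC and at least 6.09-fold higher in DPI. Without vehicle replicate 1 the vehicle mean lay under the floor and gives no fold. The vehicle call of Tnfrsf4 ended without that library or either NC library, and its DPI call without either NC library. Pdcd1, which encodes PD-1, was detected in 2 libraries, with 13 counts in NC replicate 2 and 16 counts in vehicle replicate 2, and was at 0 in the other 7. Its call in DPI against vehicle ended without NC replicate 2 or any 1 of the DPI libraries, and without vehicle replicate 2, which held all of its vehicle counts, it was not tested. Tnfrsf9 (4-1BB) had 0 and 30 counts in NC, 1, 33 and 39 in vehicle and 1, 0, 0 and 0 in DPI, and its call in DPI against NC ended without NC replicate 2. Cd244 had an unadjusted p under 0.05 but a log2 fold change of -0.72 in DPI against vehicle (SE 0.32, edgeR adjusted p = 0.999). That unadjusted p exceeded 0.05 without vehicle replicate 1 (-0.77) or 3 (-0.47), or DPI replicate 1 (-0.60) or 2 (-0.61).

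Of 11 genes of interferon-γ signalling and PD-L1 control, all tested, 1 rose and 1 fell in HFD against NC, none was called in DPI against vehicle and 2 rose in DPI against NC, with medians of 0.22, -0.17 and 0.18 beside 0.03, 0.04 and 0.04 over all genes and the shares of all genes called given for the T cell receptors. Socs1, an interferon-induced inhibitor of JAK signalling, had 40 and 39 counts in NC, 125, 123 and 162 in vehicle and 225, 61, 98 and 127 in DPI. It rose by 2.04 on the log2 scale in HFD against NC (SE 0.53, edgeR adjusted p = 0.166) and by 1.16 in DPI against NC (SE 0.50, adjusted p = 0.445), the latter call being lost without either NC library or without DPI replicate 2 or 3 (1.07 to 1.19). Cmtm6, which stabilises PD-L1 at the cell surface, had 631 and 253 counts in NC, 265, 174 and 97 in vehicle and 930, 111, 300 and 656 in DPI. NC replicate 2 (47.3 CPM) lay within the vehicle range of 24.0 to 58.8 CPM, so these groups overlapped. The log2 fold change of Cmtm6 was -1.09 in HFD against NC (SE 0.46, edgeR adjusted p = 0.352), and it was no longer called without NC replicate 1 (-0.30), vehicle replicate 2 (-0.97) or vehicle replicate 3 (-0.80). Its relative Cmtm4 had 0 and 0 counts in NC, 6, 0 and 0 in vehicle and 8, 7, 19 and 21 in DPI, at least 3.86-fold higher in DPI than in NC, a call that ended without either NC library or DPI replicate 2. Without DPI replicate 3 or 4, Cmtm4 did not pass the filter on low counts and was not tested.

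Of 10 genes downstream of CD40, all tested, 1 rose in HFD against NC, none was called in DPI against vehicle and 1 rose in DPI against NC, where 7.03%, 1.5% and 6.24% of all genes were called higher and 4.63%, 1.34% and 3.05% lower. The list's medians were 0.26, -0.01 and 0.05 beside 0.03, 0.04 and 0.04 over all genes. The gene was Traf1, an adaptor induced by NF-κB, with 4 and 27 counts in NC, 122, 296 and 150 in vehicle and 118, 21, 131 and 276 in DPI. Its log2 fold change was 3.76 in HFD against NC (SE 0.91, edgeR adjusted p = 0.140), with 2.97 without NC replicate 1 and 5.75 without NC replicate 2. In DPI against NC it was 2.53 (SE 0.84, edgeR adjusted p = 0.350), with 1.74, no longer called, without NC replicate 1 and 4.52 without NC replicate 2. None of the 8 partners of SIRPα and CD47, such as the phosphatase gene Ptpn6 and the CD47 ligand gene Thbs1, was called in any comparison, with medians of -0.12, -0.10 and -0.35 beside 0.03, 0.04 and 0.04 over all genes. No gene of these lists passed the Benjamini-Hochberg adjustment of edgeR's test in any of the comparisons.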

How the data were processed

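RNA was taken from sorted F4/80+CD11b+Gr1low liver macrophages, and 9 polyA libraries were analysed here. The authors aligned reads to mm10 and, per their methods, estimated counts per gene with bowtie2 2.2.3 and RSEM 1.2.15, whereas the submitters' processing notes name TopHat2 and edgeR. The deposited values are raw counts, 1 whole number per gene and library, and are not normalized. Estimated counts of genes with near-identical copies can be split between copies.

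Counts of all 9 libraries, which differ in total by the range given above, entered 1 fit of 3 groups with edgeR 4.0.16 in R 4.3.3 (filterByExpr, TMM, glmQLFit, glmQLFTest), with Benjamini-Hochberg adjusted p-values over 11393 tested genes. A call required an unadjusted p under 0.05 and an absolute log2 fold change of at least 1, the study's threshold. The SE printed with a quasi-likelihood log2 fold change was derived from the test. It is the absolute log2 fold change divided by the square root of the F statistic. CPM used TMM-scaled totals, log2 CPM a prior count of 2, and levels per kilobase the exon union of GENCODE M21 (GRCm38). Single members were also compared by two-sided exact permutation tests. The edgeR fit was tested on simulated data before use. Alternatives were other scalings, filters and tools (DESeq2 1.42.0, edgeR's likelihood ratio test), fits of 2 groups, the replicate number as a block, removal of Rn45s, thinning to the smallest total, and each library left out in turn. Figures were drawn with Python 3.11.15.

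Groups and replicate numbers came from the sample titles, where each library is titled as 1 mouse, and each was counted as 1 replicate. The study's text gives more mice per group than the libraries used here, so whether any library pooled mice is not given in the sources used here. Every member was named in every comparison. From each other list, at most 3 genes per comparison were named, those with the smallest unadjusted p under 0.05, and for members past 0.05 the 3 genes most correlated with them. The members and lists were chosen with earlier results of these data known.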

Additional observations from a re-analysis of the deposited data

Results flagged for a closer look

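In a group of 4 libraries, a value was taken to stand apart when its gap to the nearest other, divided by the group's range, exceeded Dixon's 95% critical value. Chance flags about 1 in 20 groups if the values are normally distributed, which linear CPM and ratios need not be. The 14 sets of DPI values examined (10 members and 4 ratios) were not independent, since the ratios reuse members. Pdcd1lg2 stood at 12.9 CPM in DPI replicate 4 against 1.36 to 2.70 CPM in the other DPI libraries (0.884 of the range). That library also had the highest summed B cell, dendritic cell and neutrophil markers (479, 471 and 5471 CPM; the dendritic sum without Ccr7 was 151 CPM, within the range of the other libraries), and their part in the value was not tested. The ratio of Lgals9 to Havcr2 per kilobase was 29.7 in DPI replicate 1 against 2.41 to 3.57 in the other DPI libraries (0.957 of the range). Both genes contribute, since Lgals9 was the highest (197 CPM) and Havcr2 the lowest (8.46 CPM) of all 9 libraries there.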

How the results depend on the processing

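Across the single-member fold changes, 279 of 294 values under other settings and 236 of 270 with 1 library left out kept their direction and their side of the unadjusted threshold of 0.05. Most of the main values lay above that threshold, so these counts say little about those under it. For DPI against vehicle, Cd40 and Cd274 each lost their unadjusted edgeR p under 0.05 in 5 of 9 fits with 1 library left out. For HFD against NC they also depended on single libraries, as given above. Library size scaling left 0 members called in HFD against NC and 0 in DPI against vehicle, 1 gene past the adjusted p of 0.05 in HFD against NC, and turned Cd86 (-0.11) and Cd47 (-0.18) in HFD against NC, Sirpa (0.044) in DPI against vehicle and Havcr2 (-0.13) in DPI against NC. The cause was not tested. Without a filter on low counts, 52 genes in HFD against NC and 22 in DPI against NC passed the adjustment, and 602 were called in DPI against vehicle instead of 324. With at least 10 counts in every sample, fewer genes were tested and 726, 202 and 527 genes were called in HFD against NC, DPI against vehicle and DPI against NC instead of 1329, 324 and 1058, with 1 past the adjustment in HFD against NC and 5, 1 and 2 genes of the other lists called instead of 8, 4 and 9.

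The adjusted p of 0.05 was passed by 7, 0 and 1 genes in HFD against NC, DPI against vehicle and DPI against NC with edgeR's quasi-likelihood test, by 312, 2 and 219 with DESeq2 and by 280, 1 and 186 with the likelihood ratio test, none of them a member. Fits of 2 groups only left 0 in HFD against NC and 0 in DPI against NC, and 4 list genes called in DPI against NC. Counts thinned to the smallest total gave 3 and 3 genes past the adjustment in HFD against NC and DPI against NC, 2 members (instead of 1) and 2 list genes called in DPI against vehicle. The exact permutation test put 1 member under 0.05 in DPI against vehicle (Cd47) where edgeR put 2 (Cd40 and Cd274).

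The replicate numbers did not pair the libraries, since deviations of the 7 same-numbered pairs correlated at -0.02 to 0.08. With the replicate number as a block, 897, 401 and 818 genes were called, 0 passed the adjustment in HFD against NC or in DPI against NC, 0 members were called in HFD against NC, 4 list genes were called in DPI against NC, and Cd274 (-0.35), Pdcd1lg2 (-0.95) and Havcr2 (-0.30) turned in DPI against NC.

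With each library left out in turn, called genes ranged from 1027 to 2634 in HFD against NC (the highest without NC replicate 2), from 187 (without vehicle replicate 1) to 543 (without NC replicate 1) in DPI against vehicle, and from 830 to 2626 in DPI against NC (the highest without NC replicate 2). Genes past the adjustment ranged from 1 to 568, from 0 to 0 and from 1 to 572, called members from 0 to 3, 0 to 2 and 0 to 1, and called list genes from 5 to 15, 2 to 5 and 4 to 12. Log2 fold changes changed sign for Icosl (-1.31 to 1.89), Sirpa (-0.27 to 0.21) and Cd47 (-0.089 to 0.38) in HFD against NC, for Icosl (-0.28 to 0.47), Pdcd1lg2 (-1.50 to 0.22) and Sirpa (-0.16 to 0.081) in DPI against vehicle, and for Icosl (-1.22 to 1.98), Pdcd1lg2 (-0.72 to 0.98), Havcr2 (-0.13 to 0.48) and Sirpa (-0.33 to 0.16) in DPI against NC. Cd80 and Pdcd1lg2 had 5 and 4 counts in DPI replicate 2.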
